A study of Mus musculus with 15 samples.

Results

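Slc17a6, Slc17a7 and Slc17a8 encode VGLUT2, VGLUT1 and VGLUT3, the vesicular glutamate transporters of the mouse. These 3 of the 57180 genes in the tables were taken by their symbols after the Ensembl identifiers had been matched to symbols. They are ENSMUSG00000030500 (Slc17a6), ENSMUSG00000070570 (Slc17a7) and ENSMUSG00000019935 (Slc17a8). The family was selected on the difference of Slc17a7 between the AMPK genotypes, which was known from earlier results, so the values of the 3 genes in that comparison are given as a description without a test.

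The study sequenced polyA RNA from the brain stem of C57BL/6 mice in 2 experiments, with 3 libraries per genotype and 15 in all. The first compared AMPK+/+ with AMPK-/-, which the paper describes as the loss of AMPKα2 (Prkaa2), a catalytic subunit of the energy-sensing kinase AMPK, in littermates. The second compared Lmx1b+/+, Lmx1b+/- and Lmx1b-/- embryos, which carry both copies, 1 copy or no copy of the transcription factor gene Lmx1b. Homozygous loss is lethal, and these libraries are prenatal. The labels give no age for the AMPK libraries. The paper's animal methods name mice in the first days after birth, in a passage on perfused brains that does not mention the RNA. Neither the labels nor the paper say whether each library came from its own animal or from pooled animals, so all p-values below measure the spread between these libraries, which may be technical.

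A neuron that releases glutamate first has to load it into synaptic vesicles, and the vesicular transporters do this with the gradient built by the vesicle's proton pump. Slc17a6 is the main transporter of brainstem, thalamic and spinal glutamate neurons, and Slc17a7 is that of the cerebral cortex, of cerebellar granule cells and of some hindbrain neurons that project to the cerebellum. Slc17a8 is found in scattered neurons, many of which release a further transmitter such as serotonin or acetylcholine. In bulk tissue, fewer cells of a type and less RNA per cell cannot be told apart.

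Because Lmx1b is a homeodomain protein, a class that binds AT-rich DNA, 3 RefSeq promoter windows are shown, each the 250 bases before an annotated start (build GRCm38.p6, a different build from the GRCm39 of the counts). The capitals mark TAATTA, a core letter sequence of many homeodomain sites, which reads the same on both strands. The Slc17a7 window lies at chr7:45163671-45163920 on the plus strand, the Slc17a6 window at chr7:51624387-51624636 on the plus strand, and the Slc17a8 window at chr10:89599816-89600065 on the minus strand.
Slc17a7: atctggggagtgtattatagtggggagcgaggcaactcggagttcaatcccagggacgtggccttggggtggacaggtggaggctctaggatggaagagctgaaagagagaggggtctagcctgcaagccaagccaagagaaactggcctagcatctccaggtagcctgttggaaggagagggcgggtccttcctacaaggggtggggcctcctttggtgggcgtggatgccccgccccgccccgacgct
Slc17a6, second start: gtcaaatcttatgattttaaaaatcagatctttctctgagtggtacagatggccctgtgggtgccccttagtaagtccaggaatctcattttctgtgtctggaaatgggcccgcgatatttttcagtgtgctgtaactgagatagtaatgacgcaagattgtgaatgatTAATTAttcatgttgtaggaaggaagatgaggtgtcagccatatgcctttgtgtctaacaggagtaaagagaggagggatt
Slc17a8, second start: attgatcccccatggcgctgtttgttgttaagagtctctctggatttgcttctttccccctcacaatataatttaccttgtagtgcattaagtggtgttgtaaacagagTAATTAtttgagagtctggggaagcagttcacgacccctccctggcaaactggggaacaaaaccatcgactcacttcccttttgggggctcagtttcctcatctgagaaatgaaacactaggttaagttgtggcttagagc
The Slc17a7 window held 0 matches, and 61.2% of its bases were G or C. The windows at the second annotated starts of Slc17a6 and Slc17a8 held 1 match each, which began 81 and 141 bases before the start, and the windows at the other start of these genes held 0. Across all RefSeq windows of this length, 4.84% of 32851 held the letters. A match is a description of the letters and not a binding site.

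Several facts on the libraries precede the results. AMPK+/+ 2 and AMPK-/- 3 held 291212 and 335986 counts, the other 4 AMPK libraries 14975095 to 17384171, and the 9 Lmx1b libraries 28833130 to 37441679. A count of 0 allowed up to 9.98 and 9.07 CPM in the 2 shallow libraries and up to 0.198 CPM in the other 13 (CPM are counts scaled to the TMM-adjusted library total, in edgeR's unit, and the limit is 3 counts). These limits cover counting error only. Prkaa2 did not separate the AMPK groups, at 21.9, 26.6 and 29.7 CPM in AMPK+/+ and 25.4, 22.3 and 12.1 CPM in the libraries labelled AMPK-/-, so every direction below is between labels. Lmx1b was at 0.848 to 1.45 CPM in Lmx1b-/-, below all others, but overlapped between Lmx1b+/- (11.9 to 30.5 CPM) and Lmx1b+/+ (9.73 to 22.5 CPM). The hindbrain Hox gene Hoxa5 was detected in all 15 libraries. Myelin and oligodendrocyte genes summed to 14080 to 24320 CPM in the AMPK libraries.

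Slc17a6 was the most abundant of the 3 transporters per gene length (RPKM) in every library. It was at 197, 203 and 197 CPM in AMPK+/+ and at 232, 261 and 215 CPM in AMPK-/-. The groups did not overlap in CPM, with all AMPK-/- libraries higher, as the groups did not for 26.6% of all 17397 tested genes. The closest values, 203 and 215 CPM, came from the shallow AMPK+/+ 2 and AMPK-/- 3, with 61 and 71 counts. In RPKM, which are not TMM-adjusted, the groups overlapped, with AMPK-/- 3 at 39.1 and AMPK+/+ 3 at 40.3. The log2 fold change was 0.27 (SE 0.16). With scaling by library size only, this value was 0.10, and with the trend on GC content removed it was 0.13.

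In the embryos, Slc17a6 was at 227, 235 and 244 CPM in Lmx1b+/+, at 286, 196 and 255 CPM in Lmx1b+/- and at 235, 279 and 259 CPM in Lmx1b-/-. The 3 groups overlapped, with the widest spread in Lmx1b+/- (246 ± 45.6 CPM, SD, n = 3). In edgeR's quasi-likelihood test across all genes, with Benjamini-Hochberg adjustment, no difference passed an adjusted p under 0.05. The log2 fold change was 0.062 (95% interval -0.22 to 0.34, adjusted p = 0.745) for Lmx1b+/- against Lmx1b+/+ and -0.20 with scaling by library size only. It was 0.13 (-0.15 to 0.41, adjusted p = 0.802) for Lmx1b-/- against Lmx1b+/+.

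**Figure D1:**
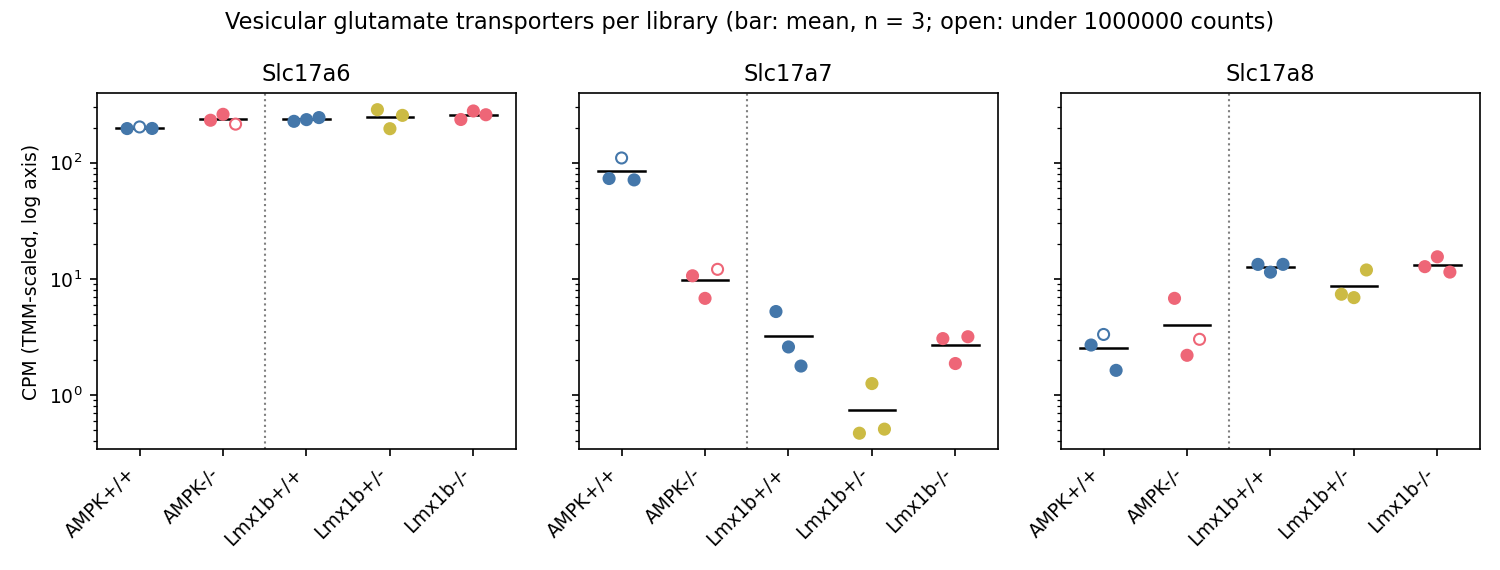
CPM on a log axis of the 3 transporters in each library (points) with the mean of each genotype (bars, n = 3), where open points are the 2 shallow libraries and the dotted line parts the experiments. Slc17a6 stays between 196 and 286 CPM, while Slc17a7 runs from 109.8 CPM in an AMPK+/+ library to 0.471 CPM in an Lmx1b+/- library.

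Slc17a7 carried the widest range of the family. In AMPK+/+ it was at 73.1, 109.8 and 71.1 CPM, from 1110, 33 and 1218 counts. In AMPK-/- it was at 10.6, 6.80 and 12.1 CPM, from 161, 105 and 4 counts. Every AMPK+/+ library thus lay above every AMPK-/- library, where the groups did not overlap for 26.6% of all 17397 tested genes. The family was selected on this difference, so its separation and the values that follow are a description only. The log2 fold change was -3.15 (SE 0.25), which is 8.85-fold lower in AMPK-/-. In the 4 deep libraries alone it was -3.04, and leaving out each library in turn gave -3.42 to -2.86.

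The AMPK groups also differed in other features, whose part in the Slc17a7 difference was not tested. Between them, edgeR called 8.94% of the tested genes at an adjusted p under 0.05, 3.77% higher and 5.17% lower in AMPK-/-, but only 6 genes when the 4 deep libraries were used alone. Mitochondrial genes took 10.4 to 13.9% of the counts in AMPK+/+ and 20.1 to 21.7% in AMPK-/-. Of 11 tested cerebellar granule cell genes, 2 were lower and 1 was higher in AMPK-/-: Fat2, an atypical cadherin of granule cells, at -3.96 (SE 0.68, adjusted p = 0.0013), Barhl1, a factor of rhombic lip derivatives, at -3.06 (SE 0.64, adjusted p = 0.00493), and Calb2, which encodes calretinin, at 1.15 (SE 0.22, adjusted p = 0.00298). Fat2 was at 2.17, 3.33 and 15.5 CPM in AMPK+/+ and at 0.661, 0.324 and 3.02 CPM in AMPK-/-, so the groups overlapped and AMPK+/+ 3 stood far above the others. Barhl1 was scarce, with 26, 1 and 55 counts in AMPK+/+ and 3, 6 and 0 in AMPK-/-. Its 0 in AMPK-/- 3 allows up to 9.07 CPM, above its highest AMPK+/+ value of 3.33 CPM. The granule cell gene Gabra6 was at 0 in AMPK+/+ 1 and 2, which allows up to 0.1975 and 9.98 CPM, and at 6.30 CPM in AMPK+/+ 3. In AMPK-/- it was at 0.859, 0.0648 and 0 CPM, where the 0 allows up to 9.07 CPM. The list as a whole summed to 213 to 334 CPM in AMPK+/+ and 284 to 368 CPM in AMPK-/-, a sum that abundant members dominate. By gene, 9 of the 11 tested members had a negative log2 fold change and 2 a positive one. Their median was -0.51, against -0.0056 over all tested genes. Forebrain glutamatergic genes were at 42.1 to 56.6 CPM in AMPK+/+ and 29.4 to 47.8 CPM in AMPK-/-, with 0 of 5 tested members called by edgeR. Skeletal muscle genes summed to 21.9, 13.3 and 892 CPM in AMPK+/+ 1 to 3, against 8.85 to 14.3 CPM in AMPK-/-. All 7 tested members were called lower in AMPK-/-, but only Cmya5 did not overlap between the groups. Serotonergic genes were at 34.5 to 66.6 CPM in AMPK+/+ and 57.6 to 402 CPM in AMPK-/-, with 5 of 8 tested members higher.

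In the embryos, Slc17a7 was scarce and lowest in Lmx1b+/-. It was at 5.24, 2.60 and 1.78 CPM in Lmx1b+/+, from 149, 75 and 79 counts. It was at 0.471, 1.26 and 0.510 CPM in Lmx1b+/-, from 13, 39 and 17 counts. In Lmx1b-/- it was at 3.07, 1.87 and 3.18 CPM, from 95, 63 and 120 counts. The Lmx1b+/- libraries lay below those of both other genotypes without overlap, and Lmx1b+/+ and Lmx1b-/- overlapped.

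Slc17a7 fell in Lmx1b+/- against Lmx1b+/+ by 2.08 on the log2 scale (SE 0.44, 95% interval -3.04 to -1.12, edgeR adjusted p = 0.00277), which is 4.22-fold lower. It was higher in Lmx1b-/- than in Lmx1b+/- by 1.85 (SE 0.45, 95% interval 0.89 to 2.81, adjusted p = 0.00862), which is 3.60-fold. Without Lmx1b+/- 3, this second value was 1.63 with an adjusted p of 0.0517. Lmx1b-/- against Lmx1b+/+ gave -0.23 (SE 0.40, 95% interval -1.08 to 0.63, adjusted p = 0.897). Without Lmx1b+/+ 1, the library with the highest value, it was 0.32. The 3 comparisons share libraries by pairs, so they are not independent of each other.

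By RPKM, Slc17a8 was the least abundant transporter in the AMPK libraries and ranked above Slc17a7 in the embryos. It was at 2.70, 3.33 and 1.63 CPM in AMPK+/+ and at 6.81, 2.20 and 3.02 CPM in AMPK-/-. The shallow libraries held 1 count each, under the limit of 3, and the groups overlapped. The log2 fold change of 1.00 (SE 0.48) rested on AMPK-/- 1, without which it was 0.072. The serotonergic genes summed to 402 CPM in AMPK-/- 1 and to 57.6 and 199 CPM in AMPK-/- 2 and 3, and their part in the Slc17a8 value was not tested.

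In the embryos, Slc17a8 was at 13.3, 11.4 and 13.3 CPM in Lmx1b+/+, at 7.38, 6.90 and 11.9 CPM in Lmx1b+/- and at 12.8, 15.5 and 11.5 CPM in Lmx1b-/-. A pair of Lmx1b+/- libraries lay below all others, and Lmx1b+/- 3 lay inside the range of both other genotypes. Slc17a8 fell by 0.54 in Lmx1b+/- against Lmx1b+/+ (SE 0.20, 95% interval -0.96 to -0.11, adjusted p = 0.0463). It rose by 0.59 from Lmx1b+/- to Lmx1b-/- (SE 0.20, 95% interval 0.17 to 1.02, adjusted p = 0.0397). Both calls were marginal. The first was lost without any 1 of Lmx1b+/+ 1, 2 or 3 or Lmx1b+/- 1 or 2 (-0.60 to -0.37, adjusted p = 0.0511 to 0.171), and the second without any 1 of Lmx1b+/- 1 or 2 or Lmx1b-/- 1 or 2 (0.40 to 0.62, adjusted p = 0.0823 to 0.167). With the replicate number as a block the adjusted p was 0.0581 and 0.0514. Lmx1b-/- against Lmx1b+/+ gave 0.058 (95% interval -0.36 to 0.47, adjusted p = 0.952). Serotonergic genes summed to 87.7 to 125 CPM in Lmx1b+/+, 72.0 to 123 CPM in Lmx1b+/- and 59.7 to 64.95 CPM in Lmx1b-/-. In Lmx1b-/- against Lmx1b+/+, edgeR called 2 of the 9 lower and 0 higher, against 0.0184% and 0% of all tested genes. These were Slc6a4 (-5.18, SE 0.25, adjusted p = 5.88e-07) and Tph2 (-4.75, SE 0.35, adjusted p = 4.8e-05).

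**Figure D2:**
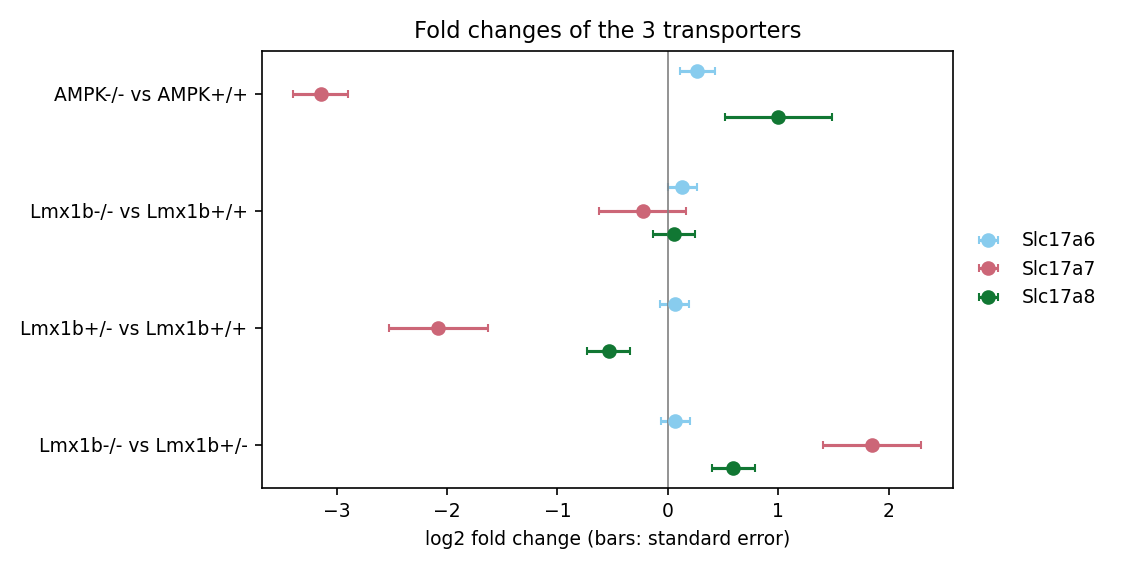
Log2 fold changes (points) with standard errors (bars) of the 3 transporters in the 4 comparisons between genotypes, 3 libraries per group. Slc17a7 is at -3.15 in AMPK-/- and at -2.08 in Lmx1b+/-, while all values of Slc17a6 lie between 0.062 and 0.27.

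Of the 3 transporters, 2 were lower in Lmx1b+/- than in Lmx1b+/+, where 36.7% of the 21729 tested genes were called, 17.3% lower and 19.4% higher. The groups did not overlap for 1 of the 3, against 45.3% of the tested genes. From Lmx1b+/- to Lmx1b-/-, 2 of 3 were higher, where 25.5% of the tested genes were called, 11.5% higher and 14% lower, and 1 of 3 did not overlap, against 42.4%. Between Lmx1b-/- and Lmx1b+/+, edgeR called 0 of the 3, with unadjusted p-values of 0.341 to 0.766, where 0.0184% of the tested genes were called, 0% higher and 0.0184% lower. None of the 3 was without overlap there, against 18% of the tested genes. These 4 calls across all genes compare with 1757 genes at an unadjusted p under 0.05 and with 36 calls by DESeq2. The Lmx1b+/- libraries thus stood apart from both other genotypes across a large share of all genes, and no statement about the transporters alone follows from their counts.

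Compared per kilobase of gene (RPKM, reads scaled by gene length and library total), the mix of transporters differed by experiment and genotype. The RPKM ratio of Slc17a7 to Slc17a6 was 0.372, 0.542 and 0.361 in AMPK+/+ and 0.0460, 0.0261 and 0.0564 in AMPK-/-. The means were 0.425 ± 0.101 and 0.0428 ± 0.0154 (SD, n = 3), a difference in the mean log2 ratio of -3.36, or 10.3-fold. In counts, Slc17a7 made up 35.1% of the sum of both genes in the shallow AMPK+/+ 2 (exact Clopper-Pearson 95% interval 25.5 to 45.6%) and 5.33% in the shallow AMPK-/- 3 (1.47 to 13.1%). These intervals cover counting error in single libraries only and are no test of the genotypes.

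The ratio was 0.0231, 0.0111 and 0.00729 in Lmx1b+/+, 0.00165, 0.00642 and 0.00200 in Lmx1b+/- and 0.0131, 0.00673 and 0.0123 in Lmx1b-/-. Every Lmx1b+/- library lay below every library of the other genotypes. The mean log2 ratio of Lmx1b+/- was 2.15 below that of Lmx1b+/+ in a two-sided exact permutation test (p = 0.1, adjusted over the 3 comparisons 0.15, n = 3), and Lmx1b-/- was 1.89 above Lmx1b+/- (exact permutation p = 0.1, adjusted 0.15). An exact p of 0.1 is the smallest that 3 against 3 libraries can give. Lmx1b-/- and Lmx1b+/+ differed by -0.26 (exact permutation p = 0.8, adjusted 0.8).

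As shares of the summed RPKM of the family, Slc17a6 made up 69.7 ± 4.88% in AMPK+/+, 94.1 ± 2.11% in AMPK-/-, 93.0 ± 1.10% in Lmx1b+/+, 95.8 ± 1.13% in Lmx1b+/- and 93.5 ± 0.530% in Lmx1b-/- (SD, n = 3). Slc17a7 made up 29.3%, 4.01%, 1.28%, 0.321% and 1.00% in the same order, and Slc17a8 made up 1.01%, 1.85%, 5.74%, 3.93% and 5.50%. The summed RPKM was 55.7 ± 4.65 in AMPK+/+ and 43.8 ± 1.63 in AMPK-/-, and 42.5 to 53.0 over the means of the embryonic genotypes. The family total therefore varied less than the level of Slc17a7 did.

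**Figure D3:**
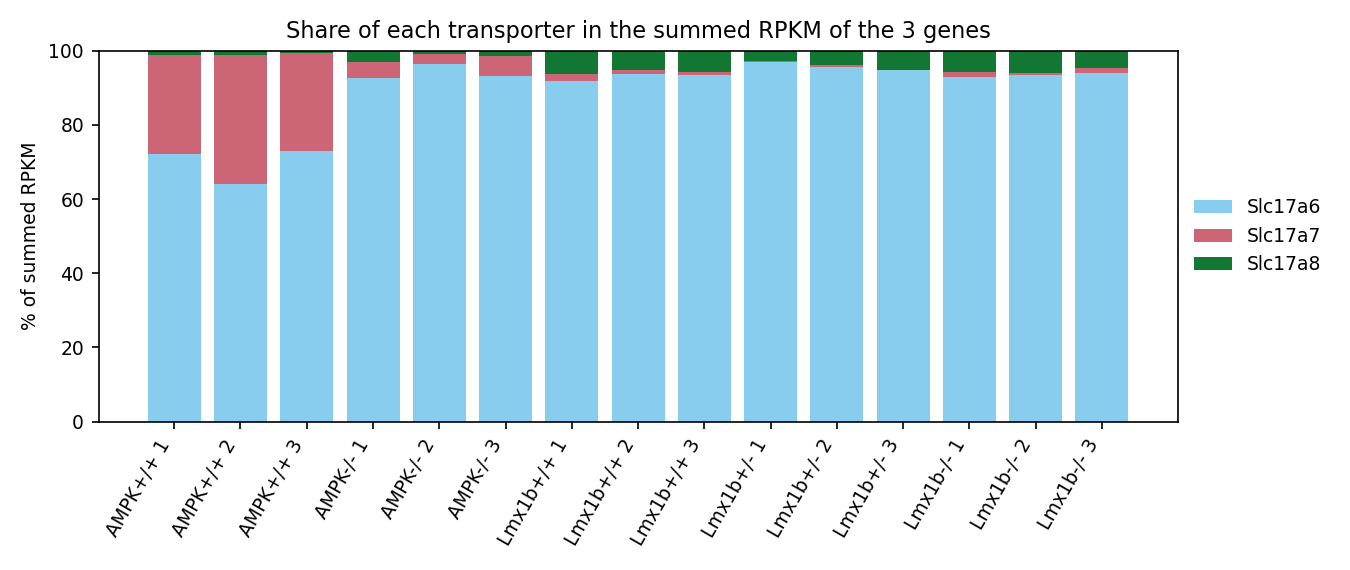
Share of each transporter in the summed RPKM of the 3 genes (percent), 1 bar per library. Slc17a7 takes 26.4 to 34.7% in the AMPK+/+ libraries and 5.26% or less in each of the other 12.

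Between the wild types of the experiments, Slc17a7 was at 16.4 RPKM in AMPK+/+ and 0.610 RPKM in Lmx1b+/+, a 27.0-fold difference of the means. Slc17a8 ran the other way, at 0.563 RPKM in AMPK+/+ and 2.88 RPKM in Lmx1b+/+, and Slc17a6 was at 38.7 and 46.7 RPKM. The experiments were scaled separately and, by the paper, differ in age, so these levels are set side by side only, and experiment and age cannot be told apart. On this scale, the order of Slc17a7 from high to low was AMPK+/+, AMPK-/- (1.12 to 2.21 RPKM), Lmx1b+/+ (0.409 to 0.938), Lmx1b-/- (0.359 to 0.610) and Lmx1b+/- (0.0729 to 0.231). Of the neighbours in this order, Lmx1b+/+ and Lmx1b-/- overlapped.

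The ratio depends on the gene length behind the RPKM. The deposited values imply 5399 bases for Slc17a6, 5392 for Slc17a7 and 4720 for Slc17a8. The longest coding transcripts of GENCODE M21 have 4137, 2915 and 4456 bases. With the latter, the mean ratio of Slc17a7 to Slc17a6 became 0.602 in AMPK+/+, 0.0607 in AMPK-/-, 0.0196 in Lmx1b+/+, 0.00476 in Lmx1b+/- and 0.0152 in Lmx1b-/-, while differences between genotypes do not depend on length.

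Base composition also moved with the Slc17a7 results. Its transcript is 58.5% G and C, above 91.7% of coding genes, against 42.9% for Slc17a6 and 44.0% for Slc17a8. The decile of tested genes richest in GC had a median log2 fold change of -0.43 in AMPK-/- against AMPK+/+, -0.27 in Lmx1b+/- against Lmx1b+/+ and 0.18 in Lmx1b-/- against Lmx1b+/-. The poorest decile had medians of 0.17, 0.23 and -0.14. With the trend on GC removed from each library, Slc17a7 was at -2.86 in the AMPK comparison, -1.86 (adjusted p = 0.00215) in Lmx1b+/- against Lmx1b+/+ and 1.72 (adjusted p = 0.00526) in Lmx1b-/- against Lmx1b+/-. With length trends removed too, the values were -2.71, -1.71 (adjusted p = 0.00517) and 1.60 (adjusted p = 0.0115).

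In Lmx1b+/-, other lists differed as well, and their part in the transporter results was not tested. The counts that follow stand against 17.3% of all tested genes lower and 19.4% higher in Lmx1b+/-. Erythroid genes summed to 510 to 1251 CPM in Lmx1b+/+, 3551 to 7518 CPM in Lmx1b+/- and 1061 to 2383 CPM in Lmx1b-/-, and 8 of 8 were higher in Lmx1b+/- than in Lmx1b+/+. Mitochondrial genes took 5.57 to 6.74%, 9.58 to 14.7% and 7.23 to 7.98% of the counts in the same order. Of 10 oligodendrocyte genes 8 were lower in Lmx1b+/-, as were 5 of 9 astrocyte genes and 5 of 11 tested cerebellar granule cell genes, among them Fat2 at -2.76 (SE 0.53, adjusted p = 0.00137) and Neurod1, a neuronal differentiation factor, at -0.96 (SE 0.19, adjusted p = 0.00185). Gabra6 was at or below 0.0530 CPM in all 9 embryonic libraries, but the granule cell list as a whole was not absent. It summed to 517 to 649 CPM in Lmx1b+/+, 396 to 509 CPM in Lmx1b+/- and 450 to 514 CPM in Lmx1b-/-. Pan-neuronal genes were mixed, with 2 higher and 3 lower of 11, and forebrain glutamatergic genes had 1 higher and 1 lower of 10 tested.

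Of 15 genes that supply or recover glutamate, edgeR called 8 lower and 0 higher in Lmx1b+/- against Lmx1b+/+, where 17.3% of all tested genes were lower and 19.4% higher, and 7 did not pass. The 15 had values of -0.69 to -0.027, with a median log2 fold change of -0.37 against -0.031 over all tested genes. Slc1a4, a neutral amino acid transporter, was at -0.48 (SE 0.08, adjusted p = 0.000695). Slc38a3, a glial glutamine transporter, was at -0.53 (SE 0.12, adjusted p = 0.00443), and Slc1a2, the astrocytic glutamate transporter GLT-1, at -0.67 (SE 0.16, adjusted p = 0.00472). From Lmx1b+/- to Lmx1b-/-, which shares the Lmx1b+/- libraries, 7 of the 15 were higher and 0 lower, against 11.5% and 14% of all tested genes, with Slc1a4 at 0.51 and Slc1a2 at 0.72.

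All 6 inhibitory neuron genes were called lower in Lmx1b+/- than in Lmx1b+/+, against 17.3% of all tested genes, with a median of -0.73. All 6 were called higher in Lmx1b-/- than in Lmx1b+/-, against 11.5%, with a median of 0.71. Both comparisons share the Lmx1b+/- libraries. Slc32a1 encodes VGAT, which loads GABA and glycine into vesicles as the VGLUTs load glutamate. It was at 65.0, 64.8 and 58.2 CPM in Lmx1b+/+, 34.7, 39.1 and 39.8 CPM in Lmx1b+/- and 56.8, 58.1 and 69.8 CPM in Lmx1b-/-, with the Lmx1b+/- libraries below all others. Its log2 fold change in Lmx1b+/- was -0.73 (SE 0.10, adjusted p = 0.000174). The plasma membrane glycine transporter Slc6a9 was at -0.74, and Gad2, which makes GABA, was at -0.57. The RPKM ratio of Slc17a6 to Slc32a1 was 1.95 ± 0.196 in Lmx1b+/+, 3.40 ± 0.834 in Lmx1b+/- and 2.18 ± 0.285 in Lmx1b-/- (SD, n = 3), and 1.28 ± 0.165 in AMPK+/+ and 2.52 ± 1.03 in AMPK-/-. Single libraries were at 1.465, 1.17 and 1.19 in AMPK+/+ and at 1.70, 2.17 and 3.68 in AMPK-/-. The last is the shallow AMPK-/- 3, with 10 Slc32a1 counts. In the AMPK comparison edgeR did not call Slc32a1 (-0.39, SE 0.20, adjusted p = 0.245).

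The endophilins and the vesicle proton pump, which recycle vesicles and power their loading, went both ways. Of 14 genes, 5 were higher and 2 lower in Lmx1b+/- than in Lmx1b+/+, against 19.4% and 17.3% of all tested genes. The pump subunits Atp6v1e1 (0.78, SE 0.10, adjusted p = 9.47e-05), Atp6v1d (0.83, SE 0.13, adjusted p = 0.000293) and Atp6v1h (0.68, SE 0.10, adjusted p = 0.000265) were higher, and Atp6v0a1 was lower (-0.84, SE 0.13, adjusted p = 0.00024). In Lmx1b-/- against Lmx1b+/-, 2 were higher and 4 lower, against 11.5% and 14% of all tested genes. In the AMPK comparison, 3 of 14 were called, against 8.94% of all tested genes. Atp6v1d was higher (0.69, SE 0.18, adjusted p = 0.0165), and Atp6v0a1 (-0.73, SE 0.17, adjusted p = 0.00891) and the endophilin Sh3gl1 (-0.83, SE 0.26, adjusted p = 0.048) were lower.

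**Figure D4:**
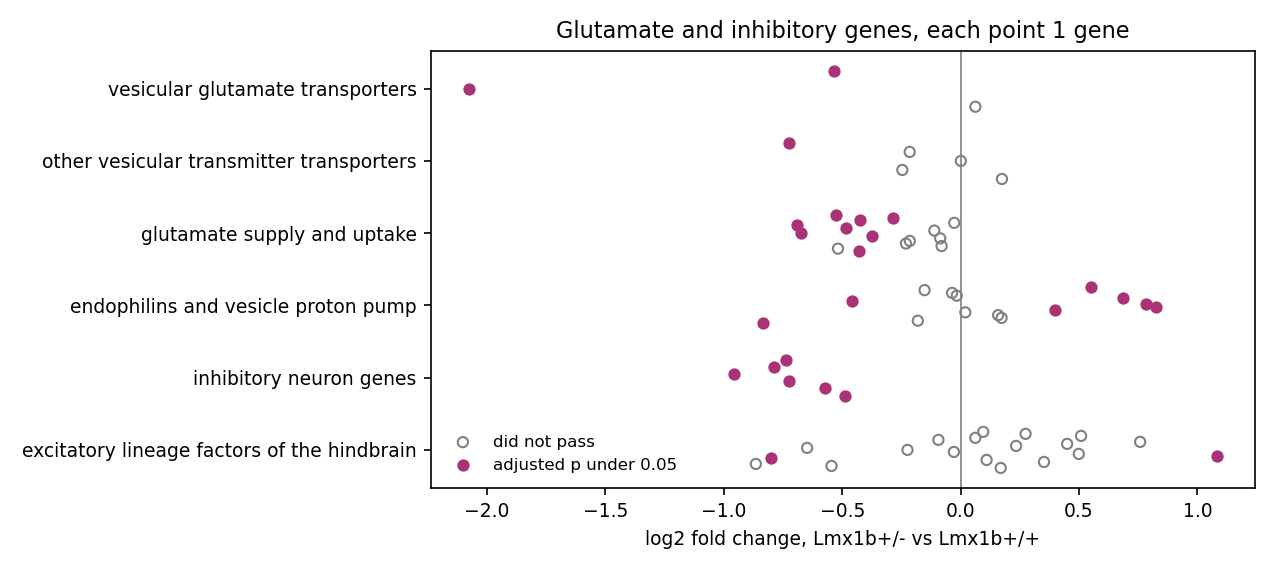
Log2 fold changes in Lmx1b+/- against Lmx1b+/+ for the 3 transporters and the tested genes of 5 further lists, 1 point per gene, filled where edgeR's adjusted p was under 0.05. Slc17a7 is the leftmost point at -2.08, the 15 supply and uptake genes and the 6 inhibitory genes all lie below 0, and proton pump genes lie on both sides.

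In the AMPK comparison, where 8.94% of all tested genes were called, edgeR called 0 of 15 supply and uptake genes, with values of -0.45 to 0.29. It called 1 of 6 inhibitory genes, Slc6a9 (-0.93, SE 0.18, adjusted p = 0.00344). Counts this small cannot be told from the share over all genes. Among 5 other vesicular transmitter transporters, Slc18a2, which loads monoamines, was higher in AMPK-/- (2.46, SE 0.49, adjusted p = 0.00371). Of the same 5, Slc32a1 was the 1 called in the embryonic comparisons of Lmx1b+/- with Lmx1b+/+ and Lmx1b-/-, against 36.7% and 25.5% of all tested genes. Between Lmx1b-/- and Lmx1b+/+, 0 genes of these lists were called, against 0.0184% of all tested genes. Of the other 6 SLC17 family members only Slc17a5, the lysosomal sialin, was abundant enough to be tested, and it passed in none of the 4 comparisons (-0.16 to 0.08).

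The next list holds factors of hindbrain excitatory lineages, not all of them restricted to excitatory neurons. Of these, 12 were tested in the AMPK experiment and 19 in the embryos. In AMPK-/-, 3 of the 12 were higher and 4 lower, against 3.77% and 5.17% of all tested genes, with Barhl1 given above and Pou4f1 at 2.00 (SE 0.49, adjusted p = 0.0138). In Lmx1b+/- against Lmx1b+/+, 1 of 19 was higher (Isl1, 1.08, SE 0.38, adjusted p = 0.0398) and 1 lower (Evx2, -0.80, SE 0.16, adjusted p = 0.00181), a smaller share than the 36.7% called of all tested genes. In Lmx1b-/- against Lmx1b+/+ only Lmx1b itself was called (-3.82, SE 0.41, adjusted p = 0.00287), against 0.0184% of all tested genes. Against Lmx1b+/- it fell together with Tlx3, Lbx1 and Dbx1 (-1.46, -0.95 and -1.50). These 4 of 19 lower and 0 higher stand against 14% and 11.5% of all tested genes. Of the 14 hindbrain identity genes, 5 were higher in Lmx1b+/- than in Lmx1b+/+ and 0 lower, against 19.4% and 17.3% of all tested genes. The share called was close to the 36.7% of all tested genes, but all calls went 1 way. In this list 12 values were positive and 2 negative, with a median log2 fold change of 0.72. Hoxa5 was at 1.43 (SE 0.39, adjusted p = 0.0113). The 14 genes summed to 300 to 708 CPM in Lmx1b+/- and 176 to 366 CPM in Lmx1b+/+.

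The genes whose log2 CPM followed each transporter most closely over the 9 embryonic libraries are given as a description, since these points share libraries, depth and base composition. For Slc17a7 they were Foxk1 (Pearson r = 0.99, Spearman rho = 0.95), Pom121, Dlc1, Gpr146 and Arhgap31 (r = 0.98 to 0.99). For Slc17a6 they were Tmem169 (r = 0.97, rho = 0.85), Wdr47, Atp6v1b2, Gm3888 and Cd200 (r = 0.92 to 0.94). For Slc17a8 they were Slc6a16 (r = 0.96, rho = 0.88), B230209E15Rik, Cbx5, Sod2 and Jmjd4 (r = 0.94 to 0.95). Over the 13 deep libraries of both experiments, centred within each, the closest to Slc17a7 were 5031434O11Rik (r = 0.98, rho = 0.91), Plxnb1, Tspan9, Cep164 and Prex1 (r = 0.97 each). None of these 5 was among the 5 over the embryonic libraries alone. Their r values include the Slc17a7 difference between the AMPK genotypes, on which the family was selected, and lend it no support.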

How the data were processed

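PolyA RNA of 15 mouse brain stem libraries in 5 genotype groups of 3 was analysed from 2 tables of counts and 2 tables of RPKM. The counts deposited by the authors are whole reads per gene, aligned with HISAT2 to GRCm39 per the submitters' processing notes; the paper names systemPipeR and edgeR. The counting tool, the annotation and the use of the kit's molecular indexes are not given in the sources used here. The RPKM deposited by the authors were checked to be the counts divided by gene length and library total. All columns were mapped to samples by genotype and number. The column named AMPKWT3.1 was read as AMPK+/+ 3, and the one with number 4, which is in its library name, as Lmx1b+/+ 3. Of 57180 identifiers, 51884 (90.7%) matched a symbol in GENCODE M21, and 183 of 184 symbols of the gene lists were found.

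Total counts ran from 291212 to 37441679 per library. R 4.3.3 and edgeR 4.0.16 were used (filterByExpr, TMM, quasi-likelihood F-test, Benjamini-Hochberg). The 6 AMPK libraries formed one model and the 9 Lmx1b libraries another, each on genotype alone, and a call means an adjusted p under 0.05. The steps were tested on simulated data. RPKM ratios were compared by exact permutation. The transporters were always named; of each list at most 4 called genes with the smallest adjusted p per comparison were named, and for likeness the 5 genes with the highest r (prior count 2). The genotype genes, some markers (Gabra6, Hoxa5) and further list values were named after their values were seen. The transporters and lists were chosen with earlier results of these data known. Alternatives were DESeq2 1.42.0, RLE or library size scaling, no filter, the replicate number as a block, only the groups compared, the deep libraries alone, group sums of counts and a pseudocount of 0.1 for the ratio, each library left out, and, chosen after seeing the data, removal of trends on GC content alone or with length. Some genes that the naming rule covers are not reported here.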

Additional observations from a re-analysis of the deposited data

How the results depend on the processing

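Slc17a7 in Lmx1b+/- against Lmx1b+/+ kept its direction and passed under every alternative run, with log2 fold changes of -2.66 to -1.53. In the AMPK comparison its value was -2.71 with GC and length trends removed, and Slc17a6 there was 0.10 with library size scaling and 0.13 with the GC trend removed. Slc17a8 there ranged from 0.072 (without AMPK-/- 1) to 1.51 over the libraries left out.

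Slc17a8 in Lmx1b+/- against Lmx1b+/+ no longer passed with RLE scaling (-0.53, adjusted p = 0.0503) or only the groups compared (-0.53, adjusted p = 0.067), and ranged from -0.83 to -0.37 over the libraries left out. Its value in Lmx1b-/- against Lmx1b+/- was 0.60 with only the groups compared (adjusted p = 0.0608) and 0.40 to 0.89 over the libraries left out. Slc17a7 in that comparison ranged from 1.62 to 2.41 and lost its call without Lmx1b+/- 3. Values that had not passed changed sign: Slc17a6 in Lmx1b+/- against Lmx1b+/+ (-0.20 with library size scaling, -0.081 with the GC trend removed, -0.064 to 0.22 over the libraries left out), Slc17a6 in Lmx1b-/- against Lmx1b+/- (-0.12 to 0.17), Slc17a8 in Lmx1b-/- against Lmx1b+/+ (-0.012 with the GC trend removed, -0.071 to 0.15) and Slc17a7 there (-0.56 to 0.32).

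Genes called in the AMPK comparison numbered 650 by DESeq2, 910 with the GC trend removed, 330 with length removed too and 6 in the deep libraries alone, against 1555, and 548 to 2958 over the libraries left out. In Lmx1b-/- against Lmx1b+/+ they numbered 36 by DESeq2, 19 with library size scaling, 329 with no filter and 13 with only the groups compared, against 4, and 3 to 11 over the libraries left out. In Lmx1b-/- against Lmx1b+/- they ranged from 3500 to 6054 over the libraries left out. The causes were not tested.

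Deviations of same-numbered libraries from their group means had correlations of -0.177 to 0.148. With 3 libraries per group, such values cannot exclude a shared litter or batch, and the labels give only the number. With the replicate block, Slc17a8 no longer passed in Lmx1b+/- against Lmx1b+/+ (-0.55, adjusted p = 0.0581) or in Lmx1b-/- against Lmx1b+/- (0.62, adjusted p = 0.0514), the genes called in the AMPK comparison numbered 1350, and no call on Slc17a6 or Slc17a7 changed. Depth limits Slc17a7 and Slc17a8 in the shallow AMPK libraries, which held 4 and 1 counts at the lowest, and Slc17a7 in Lmx1b+/-, with 13 to 39 counts.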
